A study of Mus musculus with 6 samples.

Results

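The genes described here are 7 mouse genes for secreted or cell-surface factors that many cell types switch on when stimulated. They are Edn1 (endothelin 1), Ptgs2 (cyclooxygenase 2), Hbegf (heparin-binding EGF-like growth factor), Plau (urokinase), Plaur (the urokinase receptor), Lif (leukemia inhibitory factor) and Il11 (interleukin 11). They were picked by name from 52636 genes in the count files, after the low knockout values of Edn1 and Ptgs2 had been seen, so the comparison between the groups chose them and their values are given as a description with no test. All 7 were found by symbol, and 6 had enough counts to enter the fit over 15816 genes; Il11 did not. The data are RNA-seq read counts from 6 libraries of the mouse embryonic stem cell line E14. Of these, 3 came from cells in which an enhancer cluster, tied to HoxB genes in the series title, had been knocked out, and 3 from wild-type cells. Both groups had been grown with LIF, a MEK inhibitor and a GSK3 inhibitor, and both were then kept without these for 4 days with retinoic acid at 5 µM (the labels print the unit as µm). How many knockout clones were used, and where the deletion lies, was not given in the sources used here.

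These factors act outside the cell and differ in how they signal. Endothelin 1 is a short peptide that binds G-protein-coupled receptors, and cyclooxygenase 2 makes the precursor of prostaglandins, lipids that also act through such receptors. Hbegf is made as a membrane protein and shed by proteases to bind the EGF receptor. Urokinase bound to its receptor turns plasminogen into plasmin, which breaks down extracellular matrix, and Lif and interleukin 11 signal through the shared receptor chain gp130 to STAT3. Lif is the cytokine that keeps mouse embryonic stem cells undifferentiated in culture.

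Promoter windows are shown because several of these genes are textbook targets of AP-1, the dimer of Fos and Jun proteins, and because genes for AP-1 subunits are among those reported further on. RefSeq's table for GRCm38.p6 held a window for 5 of the 7 genes, with 2 windows for Il11 and none for Hbegf and Plau. The 250 bases before each annotated start were searched on both strands for 6 motifs. These were AP-1 (TGANTCA), the cAMP response element (TGACGTCA), the TATA box (TATAAA), the GC box (GGGCGG), the SRF CArG box and the NF-kB consensus. An AP-1 match was found in Plaur, in Lif and in the second of the 2 Il11 windows. Of all 32851 RefSeq windows 6.75% held one, which is a share of windows and not of genes. The motifs were chosen with earlier results of these data known, so nothing is read from these matches. The first base of the match lay at -69 for Plaur, -228 for Lif and -98 for the second Il11 window, counted from the annotated start. The stretches around it are shown 5′ to 3′ on the gene's strand, with the AP-1 match in capitals, at chr7:24462384-24462450 for Plaur (plus strand), chr11:4257318-4257376 for Lif (plus strand) and chr7:4778203-4778269 for Il11 (minus strand).
Plaur: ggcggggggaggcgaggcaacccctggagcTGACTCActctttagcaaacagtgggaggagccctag
Lif: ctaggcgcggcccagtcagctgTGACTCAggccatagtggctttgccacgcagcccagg
Il11: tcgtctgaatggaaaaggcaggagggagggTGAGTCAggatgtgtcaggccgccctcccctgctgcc

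The windows of Ptgs2 and Edn1, the genes with the lowest knockout levels relative to wild type, held no AP-1, cAMP, TATA, CArG or NF-kB match to these letters. Ptgs2 held a single GC box, as did 32.7% of all windows at least once, and Edn1 held no match to any of the 6 motifs. Their 250 bases before the annotated start lie at chr1:150099781-150100030 for Ptgs2 and chr13:42301226-42301475 for Edn1, both on the plus strand, with the GC box in capitals.
Ptgs2: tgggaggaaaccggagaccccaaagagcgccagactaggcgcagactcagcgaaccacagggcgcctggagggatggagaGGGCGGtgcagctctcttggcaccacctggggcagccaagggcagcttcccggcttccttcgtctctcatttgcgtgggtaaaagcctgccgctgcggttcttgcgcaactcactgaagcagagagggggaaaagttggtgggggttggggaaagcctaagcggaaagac
Edn1: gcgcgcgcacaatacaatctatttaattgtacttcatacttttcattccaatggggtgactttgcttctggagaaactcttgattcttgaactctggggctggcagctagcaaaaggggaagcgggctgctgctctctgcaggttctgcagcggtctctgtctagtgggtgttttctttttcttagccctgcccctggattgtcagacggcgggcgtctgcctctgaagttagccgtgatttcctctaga
The letters are those of the reference strain, and a window with no match says only that these letters are not within those 250 bases.

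Gene counts summed to between 7780368 and 8521902 in the knockout libraries and between 8208615 and 9472916 in the wild-type libraries. Of the genes tested, 34.5% were higher and 34.0% lower in the knockout at an adjusted p below 0.05 (edgeR quasi-likelihood test, Benjamini-Hochberg adjustment), and the median log2 fold change was 0.0091. In 35.4% of tested genes, all 3 knockout libraries lay below all 3 wild-type libraries. A call of lower in the knockout is therefore common in these data. Knockout replicate 1 had 1.04% of its counts on genes over ribosomal RNA repeats, against 0.0726 and 0.106% in the other knockout libraries and 0.103 to 0.118% in wild type. The share of counts on mitochondrially encoded genes was 2.58 to 2.89% in knockout and 1.67 to 1.73% in wild-type libraries. In a fit without these ribosomal RNA and mitochondrial genes, chosen after seeing the data, 5466 genes were higher and 5411 lower, and the log2 fold changes of Edn1, Ptgs2, Hbegf and Plau were -5.03, -5.74, -2.67 and -0.66.

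All 7 genes had lower CPM (read counts scaled to library size) in every knockout library than in any wild-type library. The 6 that were tested were all called lower, against 34.0% of tested genes, and since the genes were chosen on this comparison nothing is read from that count. Together they held 46.5 to 49.8 CPM in the knockout libraries and 299.5 to 322.5 CPM in the wild-type libraries. The sizes differed widely among them, with log2 fold changes (knockout over wild type) of -5.74 for Ptgs2, -5.03 for Edn1, -2.67 for Hbegf, -2.48 for Plaur, -1.95 for Lif and -0.66 for Plau. A log2 fold change of -3 or lower was found in 0.670% of tested genes. The group was chosen after the low values of Edn1 and Ptgs2 had been seen, so nothing is read from their place there. In bulk RNA, fewer cells that express a gene and less RNA per cell cannot be told apart.

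**Figure D1:**
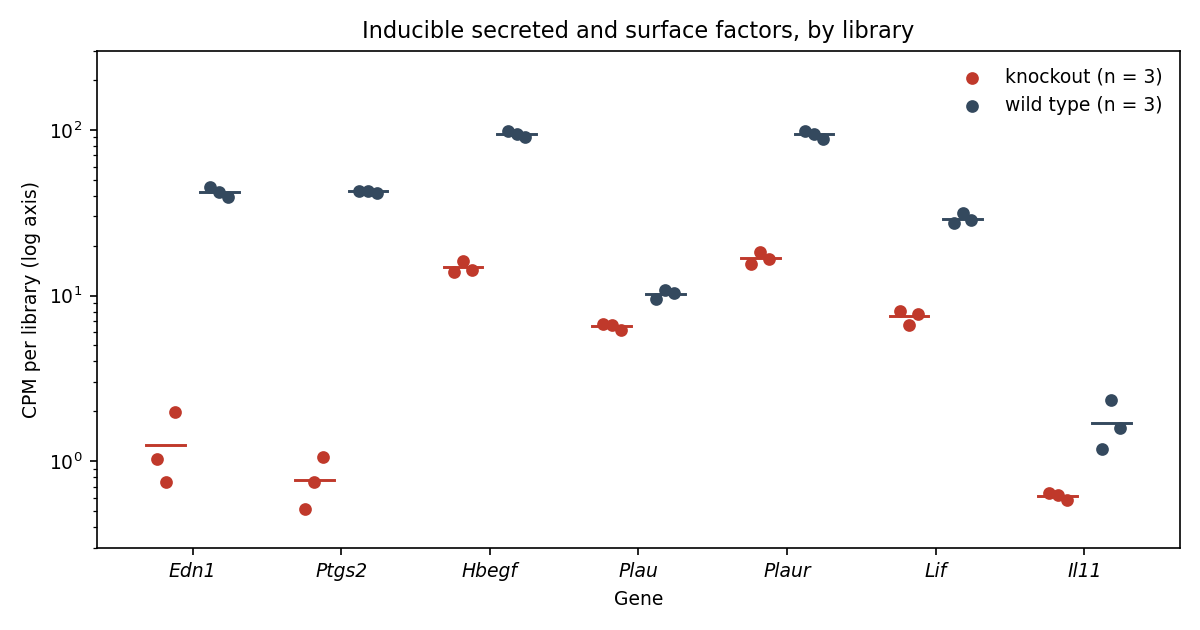
CPM (log axis) of the 7 genes in each library, knockout in red at the left of each pair and wild type in dark blue, with the bar at the mean of 3 libraries. All points of the knockout lie below those of wild type for each gene, with the widest gaps for Edn1 and Ptgs2 and the narrowest for Plau and Il11.

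**Figure D2:**
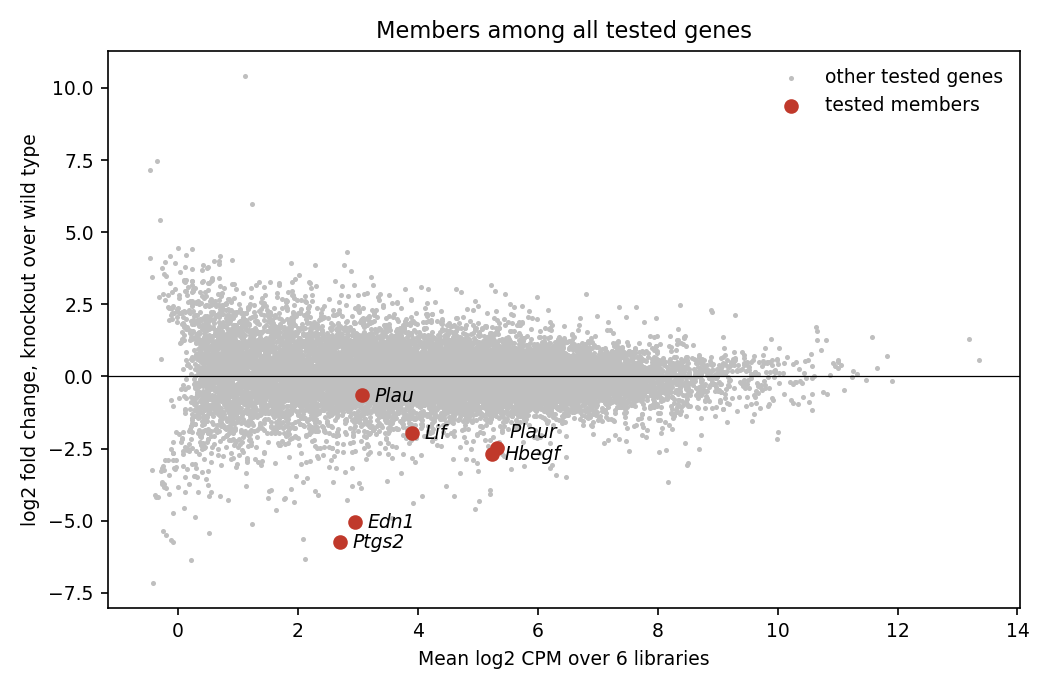
Log2 fold change (knockout over wild type) against mean log2 CPM for all 15816 tested genes in grey, with the 6 tested genes of this group in red. Edn1 lies at -5.03 and Ptgs2 at -5.74, and Plau at -0.66 lies within the bulk of genes. The group was chosen after the low knockout values of Edn1 and Ptgs2 had been seen, so nothing is read from their place.

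Edn1 (ENSMUSG00000021367), at position 42301476 to 42307990 of chromosome 13 (GRCm38, plus strand), encodes the precursor of endothelin 1, a peptide first known for constricting blood vessels. It had 8, 6 and 17 counts in the knockout libraries, against 380, 397 and 319 counts in the wild-type libraries. Scaled to library size, these were 1.03, 0.749 and 1.99 CPM in the knockout and 44.9, 42.2 and 39.1 CPM in wild type. The knockout libraries were all low and the groups lay far apart, with the highest knockout value in replicate 3. The summed knockout level was 3.03% of the wild-type level (95% interval 2.05 to 4.32%, exact, for counting error only). The log2 fold change was -5.03 (SE 0.19, n = 3 per group). Between knockout libraries the CPM of Edn1 varied by 51.8% (coefficient of variation), where counting alone at that depth gives 31.1%. In wild type it varied by 6.89%, with 5.23% from counting.

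The other genes of the endothelin system moved in both directions. Of 6 tested in the list of endothelin peptides, receptors and processing enzymes, 4 rose, 1 fell and 1 did not pass. Among all tested genes, 34.5% were higher and 34.0% lower, and nothing is read from the counts of so short a list. The median log2 fold change of the list was 1.03, beside 0.0091 over all tested genes. Both receptor genes rose. Ednra, the type A receptor, had 54, 23 and 27 counts in the knockout and 0, 6 and 2 counts in wild type (log2 fold change 3.75, SE 0.55, adjusted p = 1.27e-06 by edgeR). Its value was 4.99 without wild-type replicate 2. Ednrb, the type B receptor, averaged 9.94 ± 0.591 CPM in the knockout and 2.47 ± 0.309 CPM in wild type (SD, n = 3 each), a log2 fold change of 2.01 (SE 0.22). The peptide gene Edn3, which acts on the type B receptor in neural crest, rose by 1.74 (SE 0.41), with 2.72 ± 0.147 CPM in the knockout and 0.793 ± 0.372 CPM in wild type. Edn2 had at most 2 counts in a knockout library and at most 4 in a wild-type library and was not tested. Ece1, the enzyme that cuts big endothelin to its active form, fell by 0.31 (SE 0.049), and Mme, encoding neprilysin, which degrades endothelin and other peptides, rose by 0.32 (SE 0.050).

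Ptgs2 (ENSMUSG00000032487), at position 150100031 to 150108227 of chromosome 1 (plus strand), encodes the inducible cyclooxygenase. The knockout libraries had 4, 6 and 9 counts, against 361, 404 and 340 in the wild-type libraries. These were 0.515, 0.749 and 1.05 CPM in the knockout and 42.7, 43.0 and 41.7 CPM in wild type. Wild-type libraries were close together, with a coefficient of variation of 1.54%, and no knockout library came near them. The summed knockout level was 1.84% of wild type (95% interval 1.10 to 2.89%, exact, for counting error only), and the log2 fold change was -5.74 (SE 0.19). Only 3 of 15816 tested genes had a lower log2 fold change. Edn1 stood at rank 12 in the same order. The group was chosen after the low knockout values of both genes had been seen, so nothing is read from these ranks.

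Around Ptgs2, the genes that make, break down, carry and sense prostaglandins moved in both directions. Of 15 tested, 6 rose (40%), 4 fell (26.7%) and 5 did not pass, against 34.5% higher and 34.0% lower of all tested genes. The median log2 fold change was 0.26. Ptgs1, the cyclooxygenase that most tissues carry without induction, was low in both groups, at 5.55 ± 1.44 CPM in the knockout and 4.43 ± 1.47 CPM in wild type, and did not pass (log2 fold change 0.33, SE 0.26). Pla2g4a, which frees arachidonic acid for both cyclooxygenases and is the nearest tested gene to Ptgs2 on the lower-coordinate side, was at 0.47 (SE 0.38) and did not pass. Ptges, the prostaglandin E synthase usually induced with Ptgs2, had 136.9 ± 6.61 CPM in the knockout and 144.6 ± 2.33 CPM in wild type, a log2 fold change of -0.080 (SE 0.047) that did not pass. Ptgis, prostacyclin synthase, rose by 0.30 (SE 0.087), and Prxl2b, annotated as a prostaglandin F synthase, rose by 1.11 (SE 0.19). Ptges3 fell by 0.40 (SE 0.045). Among receptors, Ptger4 rose by 0.80 (SE 0.22) and Tbxa2r, the thromboxane receptor, fell by 1.05 (SE 0.31), while Ptger2, Ptgfr, Ptgir and Ptgdr had too few counts to be tested. Exons of other genes on the opposite strand cover 16.5% of Ptger4, and the counting's strand setting was not given.

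Hbegf (ENSMUSG00000024486), at position 36504927 to 36515805 of chromosome 18 (minus strand), encodes an EGF-like growth factor. Its counts were 108, 129 and 122 in the knockout libraries and 829, 886 and 736 in the wild-type libraries. In CPM, the knockout libraries had 13.9, 16.1 and 14.3, and the wild-type libraries 98.0, 94.2 and 90.3. The groups did not overlap and were tight, with the summed knockout level at 15.7% of wild type (95% interval 14.0 to 17.5%, exact, for counting error only). The log2 fold change was -2.67 (SE 0.082).

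Of the other EGF-like ligands, receptors and sheddases, 16 were tested, of which 4 rose (25%), 7 fell (43.75%) and 5 did not pass (median -0.20). Among all tested genes, 34.5% were higher and 34.0% lower. Egfr, the receptor that Hbegf binds, fell by 1.59 (SE 0.097, adjusted p = 1.12e-13 by edgeR), with 17.0 ± 1.02 CPM in the knockout and 51.4 ± 4.01 CPM in wild type. Erbb2, the partner receptor without a ligand of its own, fell by 0.70 (SE 0.093), while Erbb3 did not pass (-0.038, SE 0.10). Errfi1, a feedback inhibitor of the EGF receptor that is itself induced by its signal, averaged 107.9 ± 3.70 CPM in the knockout and 284.7 ± 11.8 CPM in wild type (log2 fold change -1.40, SE 0.046). Tgfa, another ligand of the EGF receptor, fell by 0.56 (SE 0.18), and Nrg2, a neuregulin, rose by 0.66 (SE 0.10). The inducible ligands Areg and Ereg had 0 to 2 counts in the knockout libraries and 0 to 4 in the wild-type libraries, so that of the listed EGF receptor ligands Hbegf had the highest count in both groups. Among proteases that shed such ligands, Adam17 did not pass (0.095, SE 0.052), Adam10 rose by 0.25 (SE 0.050), and Adam9 and Adam12 fell by 0.63 (SE 0.048) and 2.32 (SE 0.29). Rhbdf2, which guides Adam17 to the cell surface, rose by 0.83 (SE 0.058).

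Plau and Plaur encode a protease and its receptor, and their values differed in size. Plaur (ENSMUSG00000046223), at position 24462484 to 24475968 of chromosome 7 (plus strand), had 121, 147 and 141 counts in the knockout and 836, 888 and 717 counts in wild type. In CPM these were 15.6, 18.3 and 16.5 in the knockout and 98.9, 94.4 and 88.0 in wild type. The summed knockout level was 17.9% of wild type (95% interval 16.1 to 19.9%, exact, for counting error only), with a log2 fold change of -2.48 (SE 0.082). Plau (ENSMUSG00000021822), at position 20836660 to 20843385 of chromosome 14 (plus strand), had 52, 53 and 53 counts in the knockout and 81, 102 and 84 counts in wild type. Its CPM was 6.70, 6.61 and 6.21 in the knockout and 9.58, 10.8 and 10.3 in wild type. The groups did not overlap, but the summed knockout level was still 63.3% of wild type (95% interval 51.7 to 77.3%, exact, for counting error only), and the log2 fold change was -0.66 (SE 0.17). Both intervals leave out the spread between libraries, and the difference in size between Plau and Plaur was not tested.

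Other genes of plasminogen activation moved both ways. Of 15 tested, 6 rose (40%), 6 fell (40%) and 3 did not pass, against 34.5% higher and 34.0% lower of all tested genes. The median was 0.048. Plat, the tissue-type activator, rose by 0.86 (SE 0.066), with 94.0 ± 8.03 CPM in the knockout and 51.8 ± 2.37 CPM in wild type. Serpinf2, encoding alpha-2-antiplasmin, rose by 2.60 (SE 0.30), and Serpine2, encoding protease nexin 1, by 0.34 (SE 0.065). Anxa2 and S100a10, which together form a plasminogen receptor at the cell surface, fell by 1.50 (SE 0.050) and 1.12 (SE 0.057). The matrix proteases moved apart, with Mmp9 at -2.03 (SE 0.058), Mmp14 at -1.22 (SE 0.072) and Mmp2 at 1.85 (SE 0.11), all past the threshold. Mrc2, a collagen receptor that associates with the urokinase receptor, rose by 1.25 (SE 0.047), and Itgav, an integrin chain, fell by 1.24 (SE 0.053). Plg, plasminogen itself, had at most 4 counts in any library and was not tested.

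Lif (ENSMUSG00000034394), at position 4257557 to 4272514 of chromosome 11 (plus strand), had 63, 53 and 66 counts in the knockout libraries and 230, 295 and 232 in the wild-type libraries. In CPM it had 8.12, 6.61 and 7.73 in the knockout and 27.2, 31.4 and 28.5 in wild type. The summed knockout level was 25.7% of wild type (95% interval 21.8 to 30.3%, exact, for counting error only), and the log2 fold change was -1.95 (SE 0.13). These reads are the cells' own transcript, apart from the LIF protein that had been in the stem cell medium. Il11 (ENSMUSG00000004371), at position 4772373 to 4782859 of chromosome 7 (minus strand), was near the limit of detection, with 5, 5 and 5 counts in the knockout and 10, 22 and 13 counts in wild type. Its CPM was 0.644, 0.624 and 0.586 in the knockout and 1.18, 2.34 and 1.60 in wild type. The groups did not overlap, but the summed knockout level of 35.7% of wild type had an interval of 18.5 to 65.2% (95%, exact, for counting error only). For scale, 3 counts in a library were taken as the floor. They correspond to 0.351 to 0.386 CPM in the knockout and 0.319 to 0.368 CPM in wild type.

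Of the other cytokines, receptors and signal carriers of this family, 18 were tested, of which 6 rose, 6 fell and 6 did not pass (median -0.093). The shares that rose and fell were 33.3% each, against 34.5% higher and 34.0% lower of all tested genes. The shared receptor chain Il6st (gp130) rose by 0.18 (SE 0.048) and Lifr, the LIF receptor chain, by 0.31 (SE 0.055). Il11ra1, the interleukin 11 receptor, had 15.3 ± 1.07 CPM in the knockout and 7.77 ± 1.35 CPM in wild type, a rise of 0.97 (SE 0.16), while Il6ra, the interleukin 6 receptor, fell by 2.34 (SE 0.19). Stat3, the transcription factor that gp130 activates, averaged 138.8 ± 8.26 CPM in the knockout and 71.9 ± 6.42 CPM in wild type (log2 fold change 0.95, SE 0.058). Socs3, a direct STAT3 target that shuts gp130 off, rose by 0.39 (SE 0.14). The call for Socs3 was lost without knockout replicate 1 (adjusted p = 0.0959 by edgeR) or wild-type replicate 1 (adjusted p = 0.0907 by edgeR). Il6, Osm and Clcf1 had 0 to 2 counts in the knockout libraries and 0 to 3 in the wild-type libraries.

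Genes that LIF supports in stem cells moved in both directions. Of 8 listed, 4 rose (50%), 3 fell (37.5%) and 1 did not pass, against 34.5% higher and 34.0% lower of all tested genes. Tfcp2l1 rose by 0.74 (SE 0.050), Pim3 by 0.92 (SE 0.054), Klf5 by 0.42 (SE 0.050) and Klf4 by 0.28 (SE 0.066). Esrrb fell by 1.18 (SE 0.059), Pim1 by 0.48 (SE 0.062) and Gbx2 by 0.44 (SE 0.17), and Tbx3 did not pass (-0.022, SE 0.038). A gene on the other strand overlaps 43.45% of the exon length of Gbx2. A link between these genes and the level of Lif was not tested.

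**Figure D3:**
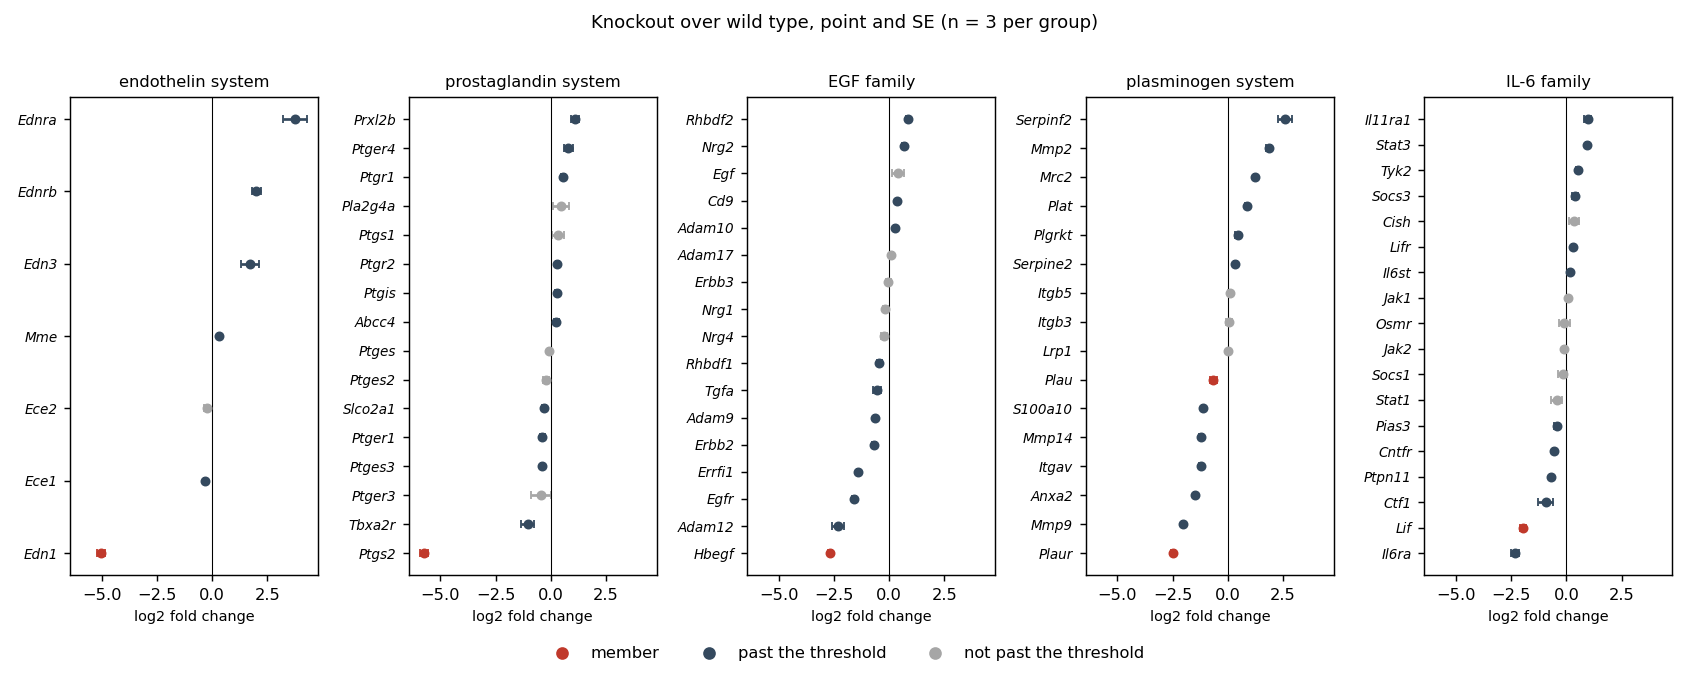
Log2 fold change (knockout over wild type, point with SE, n = 3 per group) of the tested genes of the 5 systems that are reported here, with the 7 genes' tested members in red, other genes past the threshold in dark blue and genes not past it in grey. Edn1, Ptgs2 and Hbegf have the lowest value shown in their panel, whereas Il6ra at -2.34 lies below Lif.

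Over the 5 systems, 94 other genes were listed and 70 tested, of which 26 rose (37.1%), 24 fell (34.3%) and 20 did not pass. These shares are close to the 34.5% higher and 34.0% lower of all tested genes, and the median log2 fold change was -0.0051. Of the 70, 12 (17.1%) had a log2 fold change of -1 or lower, against 9.53% of all tested genes. On the other side, 7 (10%) had one of 1 or higher, and the share of all tested genes there was not worked out. These lists were chosen with earlier results of these data known, so nothing is read from either share.

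Other secreted genes that stimuli induce in many cells were mostly lower. Of 30 listed, 19 were tested. Of these, 13 fell (68.4%, against 34.0% of all tested genes), 3 rose and 3 did not pass, with a median of -1.34. The list was chosen with earlier results of these data known, so nothing is read from this share. Thbs1, encoding thrombospondin 1, averaged 26.5 ± 2.78 CPM in the knockout and 293.9 ± 2.45 CPM in wild type (log2 fold change -3.47, SE 0.059). Csf1, the macrophage growth factor, averaged 24.1 ± 3.28 CPM in the knockout and 256.6 ± 4.57 CPM in wild type (-3.41, SE 0.064). Ccn2 and Ccn1, matrix-associated signalling proteins, fell by 3.06 (SE 0.054) and 1.69 (SE 0.044), with 23.2% of the exon length of Ccn2 overlapped by a gene on the other strand. Inhba, encoding the activin A subunit, had 0 counts in all 3 knockout libraries and 21, 14 and 19 in wild type, at least 16.8-fold lower in the knockout when 3 counts over that group are taken as the floor. Ccl2, a chemokine, had 0, 0 and 1 counts in the knockout and 23, 27 and 16 in wild type. Against these, Il33, an alarmin of the interleukin 1 family, rose by 2.29 (SE 0.17), with 17.1 ± 1.29 CPM in the knockout and 3.48 ± 0.400 CPM in wild type, and Spp1, osteopontin, rose by 0.24 (SE 0.043).

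Among the AP-1 and NF-kB transcription factor genes, 11 of 15 fell (73.3%, against 34.0% of all tested genes). Another 1 rose and 3 did not pass, and the median was -0.47. This list too was chosen with earlier results of these data known, and nothing is read from its share. Fosl2, the most counted Fos-family gene in wild type, averaged 16.7 ± 0.415 CPM in the knockout and 111.2 ± 5.84 CPM in wild type (log2 fold change -2.74, SE 0.074). Fosl1 had 0, 5 and 2 counts in the knockout and 27, 39 and 41 in wild type (-3.77, SE 0.51), and its value was -4.91 without knockout replicate 2. Genes on the other strand overlap 57.2% of its exon length. Jun fell by 0.47 (SE 0.049) and Fos by 0.31 (SE 0.10). Nfkb1 fell by 1.36 (SE 0.072) and Rela by 0.96 (SE 0.083), whereas Rel rose by 1.46 (SE 0.14).

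Per kilobase of exon, which allows levels to be compared between genes, the order of the 7 differed between the groups. In the knockout the mean levels, in CPM per kilobase, were 6.43 for Plaur, 3.05 for Hbegf, 2.75 for Plau, 1.72 for Lif, 0.588 for Edn1, 0.297 for Il11 and 0.169 for Ptgs2. In wild type they were 35.8 for Plaur, 19.7 for Edn1, 19.5 for Hbegf, 9.27 for Ptgs2, 6.67 for Lif, 4.33 for Plau and 0.820 for Il11. Plaur was first in both groups. Ptgs2 was last in the knockout and the fourth in wild type. Neighbours in the knockout order were separate in every library for Plaur and Hbegf, for Hbegf and Plau, for Plau and Lif, for Lif and Edn1, for Edn1 and Il11, and for Il11 and Ptgs2. The last 3 genes rest on few counts (31 for Edn1, 15 for Il11 and 19 for Ptgs2 in all), so that their order is loose. In wild type, Edn1 (18.3 to 21.0) and Hbegf (18.7 to 20.3) overlapped, and the other neighbours did not. Among tested genes with a length, 7.56% lay below Edn1 in the knockout and 80.5% in wild type, while 51.7% lay below Plaur in the knockout and 90.03% in wild type.

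**Figure D4:**
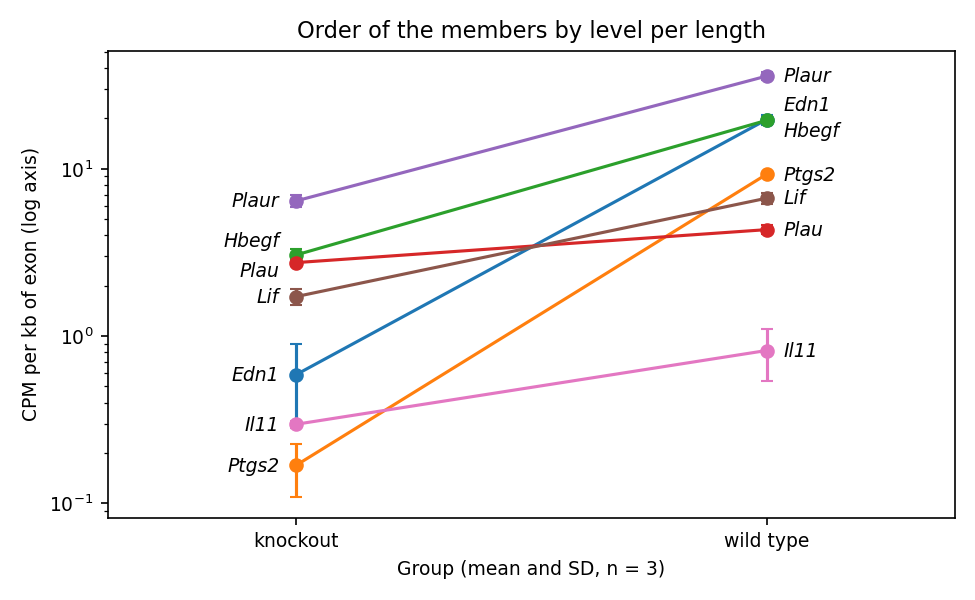
Level per kilobase of exon (CPM per kb, log axis) of the 7 genes in the knockout at the left and wild type at the right, points at the mean and bars at the SD of 3 libraries; lines join the 2 values of a gene. Lines of Edn1 and Ptgs2 cross those of Lif and Plau, and Plaur is highest in both groups.

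The genes whose profile was most like Edn1 over the 6 libraries, by the root-mean-square difference of centred log2 CPM, included Tubb3 (0.14), Ccn4 (0.45), Myc (0.47) and Anxa1 (0.47). For Ptgs2 they included Ccn4 (0.26), Stmn4 (0.39), Tubb3 (0.40) and Sp5 (0.56). Edn1 and Ptgs2 differed from each other by 0.37. Hbegf, Plaur, Lif and Plau stood at 1.18, 1.27, 1.52 and 2.17 from Edn1. With 2 groups of libraries this measure mainly follows the size of the difference between the groups.

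The nearest tested genes on either side of the 7 moved in both directions. Of these 14 neighbours, 6 rose, 4 fell and 4 did not pass, with log2 fold changes from -1.42 to 2.07. Over all tested genes, 34.5% were higher and 34.0% lower. Edn1 lies 108.9 kb from Hivep1, which did not pass (0.0095, SE 0.068), and 372.6 kb from Phactr1, which rose by 2.07 (SE 0.25). Hbegf lies 12.3 kb from Slc4a9, which rose by 1.94 (SE 0.18), and Plaur 6.06 kb from Cadm4, which rose by 0.38 (SE 0.12). Vcl, the vinculin gene 86.0 kb from Plau, fell by 1.27 (SE 0.041). Tmem238, 1.70 kb from Il11, fell by 1.27 (SE 0.32), and Rbm3-ps, 157.3 kb from Ptgs2, fell by 1.42 (SE 0.40). Smg9, 39.7 kb from Plaur, fell by 0.27 (SE 0.12).

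Markers of cell types known for these factors were followed beside them. For the counts of calls that follow, 34.5% of all tested genes were higher and 34.0% lower in the knockout. The marker lists were chosen with earlier results of these data known, so nothing is read from their counts of calls. Endothelial cells are a classic source of Edn1. Of 10 endothelial markers only 4 were tested, of which 1 rose and 2 fell, and their summed level was 28.6 to 31.3 CPM in the knockout and 37.9 to 43.8 CPM in wild type. Without Pecam1, the most counted of them, the groups overlapped, at 18.04 to 20.1 CPM in the knockout and 14.8 to 22.4 CPM in wild type. Emcn had 0 counts in all 6 libraries, and Cldn5 and Sox18 had at most 3 in any. Of 9 leukocyte markers 2 were tested and both fell, Csf1r and Cd68. The summed level of the list was 26.4 to 28.5 CPM in the knockout and 37.1 to 38.9 CPM in wild type. Ptprc and Adgre1 had 0 counts throughout. Of 9 fibroblast markers 8 were tested, 2 rose and 4 fell, and the sum was 401.3 to 410.6 CPM in the knockout and 598.2 to 608.1 CPM in wild type. The direction of this sum rested on the collagen gene Col1a1, at 107.9 ± 2.42 CPM in the knockout and 352.9 ± 13.02 CPM in wild type (SD, n = 3 each). Without it the sum was higher in the knockout, at 292.2 to 305.5 CPM, against 240.4 to 257.4 CPM in wild type. Pdgfra, a growth factor receptor gene, rose, with 175.5 ± 5.37 CPM in the knockout and 75.4 ± 6.34 CPM in wild type. Of 8 trophoblast markers 7 were tested, 1 rose and 6 fell (480.02 to 486.3 CPM in the knockout and 826.1 to 852.1 CPM in wild type), and without Krt18, the most counted, the knockout had 82.1 to 89.5 CPM and wild type 129.97 to 134.9 CPM. Of 9 endoderm markers 6 rose and 1 fell (3829.8 to 3853.5 CPM in the knockout and 1499.7 to 1526.4 CPM in wild type), and without Lama1, the most counted, the knockout had 1005.1 to 1062.4 CPM and wild type 576.2 to 586.9 CPM.

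The labels call the cells embryonic stem cells and the series calls the state neural progenitor. Of 7 stem cell markers 6 were tested, 1 rose (16.7%) and 5 fell (83.3%), against 34.5% higher and 34.0% lower of all tested genes. Their median log2 fold change was -1.38. Pou5f1, encoding Oct4, rose by 0.12 (SE 0.049), with 200.6 ± 14.9 CPM in the knockout and 184.0 ± 5.36 CPM in wild type. Nanog fell by 2.32 (SE 0.054), with 32.8 ± 1.51 CPM in the knockout and 163.8 ± 3.89 CPM in wild type, and Zfp42 fell by 1.55 (SE 0.063). Of 8 neural progenitor markers 6 were tested, 2 rose (33.3%), 3 fell (50%) and 1 did not pass, with a median of -0.80. Both lists were chosen with earlier results of these data known, and nothing is read from these shares. Nes, the nestin gene, fell, with 33.6 ± 3.49 CPM in the knockout and 231.4 ± 6.84 CPM in wild type. Cdh2, encoding N-cadherin, fell, with 49.6 ± 1.68 CPM in the knockout and 142.9 ± 10.03 CPM in wild type, and Sox2, which is also on the stem cell list, fell by 1.49 (SE 0.076). Msi1, an RNA-binding protein gene, rose, with 34.9 ± 2.45 CPM in the knockout and 27.5 ± 1.83 CPM in wild type, and Pax6 rose by 1.16 (SE 0.28). Sox1 did not pass, at 1.84 ± 0.607 CPM in the knockout and 1.98 ± 0.521 CPM in wild type, Hes5 had 1 count in total and Fabp7 had 0 counts in all 6 libraries. The part of the stem cell, neural progenitor and other cell type marker differences in the values of the 7 genes was not tested.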

How the data were processed

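Each of 6 libraries came with 1 table of whole-number read counts per Ensembl gene, deposited by the authors without normalization. The submitters' processing notes list HISAT2 2.1.0, HTSeq 0.9.1, DESeq2 1.18.1 and the build mm10. Which annotation release and which strand option HTSeq used is not given in the sources used here. HTSeq's 5 closing tallies stayed out of all totals (no feature, 42.3 to 43.5% of a library). Symbols, positions and union exon lengths came from GENCODE M21 (GRCm38, the same build), and 52489 of 52636 identifiers matched.

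Counts were fitted with edgeR 4.0.16 (R 4.3.3): filterByExpr with a minimum count of 10, TMM scaling, quasi-likelihood F test of knockout over wild type, Benjamini-Hochberg over 15816 genes, threshold 0.05. The SE is the log2 fold change over the root of F. Edn1 and Ptgs2 passed the filter through the wild-type libraries. The procedure was tested on simulated data. Members, gene lists and motifs were chosen with earlier results of these data known. Every tested gene of a list could be named, those with the largest changes or highest levels first, and likeness was ranked to the nearest 5 genes without predicted-gene names. Some genes that these rules take are not reported here, though list counts include them. The symbol Prxl2b was matched through a RefSeq synonym. Replicate pairs differed by more than counting noise (chi-square per degree of freedom 1.90 to 7.12). The labels call replicates biological but do not say whether cultures were separate. The p-values therefore weigh the group difference only against the spread between these libraries.

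Alternatives were RLE and upper-quartile scaling, DESeq2 1.42.0, limma-voom (limma 3.58.1), 2 other filters, the replicate number as a block and each library left out. The fit without ribosomal RNA locus and mitochondrial genes was chosen after seeing the data.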

Additional observations from a re-analysis of the deposited data

How the results depend on the processing

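Each alternative kept the counts of changed genes within 1.5 times: over all genes 4918 to 5769 were higher and 5005 to 5711 lower, and in the 5 systems 24 to 28 were higher and 23 to 26 lower. With each library left out in turn, the ranges were 5186 to 5305 and 5163 to 5280 over all genes, and 24 to 26 and 23 to 26 in the 5 systems. With the replicate number as a block, 5465 genes were higher and 5397 lower, and 26 and 24 in the 5 systems. Same-numbered libraries did not deviate together (correlations of 0.014, 0.0050 and -0.014), so the numbers were not taken as pairs, and the block changed no call named in the text. The 6 tested members kept direction and call under all 14 alternatives, with log2 fold changes of -5.55 to -4.77 for Edn1, -6.03 to -5.53 for Ptgs2 and -0.71 to -0.62 for Plau. Il11 entered only some alternatives, at -1.47 with no filter. Of 118 genes followed, 13 changed call under at least 1 alternative, and none changed direction while called; Abcc4, Gbx2, Ctf1, Maff, Vegfa and Angptl4 were called in the main result and lost it without at least 1 library. Depth limits Edn1, Ptgs2 and Il11, whose knockout values rest on 31, 19 and 15 reads; intervals cover counting error only.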
